A study of Mus musculus with 6 samples.

Results

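The 32 genes described here encode the enzymes of glycolysis, the carriers that bring glucose into the cell and take lactate out, regulators of glycolytic flux, and part of the response to low oxygen. They were chosen by symbol, as members of these pathways, and all 32 were found among the 34745 genes of the deposited table, spread over 14 chromosomes. RNA came from cardiac macrophages of C57BL/6 mice aged 8 weeks, either without legumain (Lgmn KO, replicates 1, 2 and 4) or wild type (WT, replicates 1, 2 and 3), and the series describes both groups as taken after myocardial infarction. Legumain is a cysteine protease of the lysosome. Macrophages were sorted from digested hearts after staining for CD45, CD64 and CD11b, and dead cells were left out with a dye. Both ligation of a coronary artery and a sham operation are mentioned in the labels, which do not say which of them an animal had. The part of Lgmn that was removed, and whether it was removed in every cell of the mouse, were not given in the sources used here. The labels leave out whether the libraries came from different animals, so the p-values measure only the spread between these libraries, which may be technical.

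Glycolysis breaks glucose down to pyruvate in the cytosol, and lactate dehydrogenase turns pyruvate into lactate so that the pathway can run on when little oxygen is used. In well-oxygenated cells prolyl hydroxylases mark the alpha subunits of the hypoxia-inducible factor HIF for destruction. When oxygen falls the subunits persist, bind DNA that carries the letters ACGTG or GCGTG, and raise the transcription of many glycolytic genes along with genes for collagen modification, mitophagy and blood vessel growth. Infarcted heart muscle is poorly supplied with blood, and macrophages activated by inflammatory signals are known to run on glycolysis.

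Each library held 19546253 to 24086976 counts, of which the 32 members took 0.711% to 0.775%. Levels below are CPM, counts divided by the library size after TMM scaling, unless deposited FPKM is named, and values of single libraries are always in the order of replicates 1, 2 and 4 for Lgmn KO and 1, 2 and 3 for WT. Lgmn itself stood at 78.7, 88.5 and 83.5 CPM in Lgmn KO against 2205, 2692 and 2277 in WT (log2 fold change -4.84, adjusted p = 3.23e-06). All adjusted p-values of the comparison are Benjamini-Hochberg values from edgeR's quasi-likelihood test over 12546 genes, fold changes are of Lgmn KO over WT, and a gene was called at an adjusted p below 0.05. Macrophage markers summed to 21701 to 25165 CPM in Lgmn KO against 23457 to 24971 in WT, with Lyz2 making up most of each sum, Cd68 and Itgam next and Cd163 at or near 0. Some macrophage markers had lower levels in Lgmn KO. Fitted folds were 0.597 for Csf1r, 0.503 for Cd14, 0.256 for Aif1, 0.609 for Mrc1, 0.471 for Fcgr1 and 0.705 for Adgre1. Of these 6 edgeR called none, and DESeq2 called Csf1r, Cd14, Aif1 and Mrc1. Smaller falls were fitted for Itgam (0.777), Mertk (0.847) and Fcer1g (0.865). Near or above 1 were Lyz2 (0.947), Tyrobp (0.975), Ptprc (1.00), Spi1 (1.06) and Cd68 (1.13). Markers of dendritic cells summed to 7.01 to 8.91 CPM in Lgmn KO against 16.1 to 82.6 in WT, where Ciita alone, which other antigen-presenting cells also express, held 9.2, 64.2 and 32.9 CPM against 2.17 to 2.27 in Lgmn KO. Of the 6 tested dendritic cell markers edgeR called 1, Zbtb46 (fitted fold 0.225, adjusted p = 0.041), while Cd209a had a fitted fold of 1.6 with overlapping groups. Markers of T and NK cells summed to 1.13 to 1.64 CPM in Lgmn KO against 6.67 to 17.2 in WT. Of the 5 tested, edgeR called 2, Trac (fitted fold 0.0716, adjusted p = 0.0465) and Il2rb (0.0257, adjusted p = 0.0267), both lower in Lgmn KO. Over all tested genes 0.478% were called lower. Summed fibroblast markers were at 47 to 123 CPM in Lgmn KO against 139 to 189 in WT. Monocyte markers summed to 588 to 687 CPM in Lgmn KO against 568 to 836 in WT, most of it Chil3. Of the tested monocyte markers, Ccr2 (fitted fold 0.128), Ly6c2 (0.31), Ms4a4c (0.385) and Nr4a1 were below WT in every Lgmn KO library. So was Cd177, which was listed with them though it is known from neutrophils. The groups overlapped for Chil3, F13a1, Vcan, Plac8, Ace and Treml4. Neutrophil markers summed to 273 to 330 CPM in Lgmn KO against 311 to 455 in WT. Of these Mmp8 was lower in Lgmn KO (fitted fold 0.443) and Cxcr2 higher (1.35). The groups overlapped for Csf3r (1.14), S100a8 (1.11), S100a9 (0.982) and Retnlg (0.897). Ltf (8, 15 and 13 counts against 2, 5 and 1) and Mpo (4, 9 and 30 against 0 in WT) were higher in every Lgmn KO library but too scarce to be tested. Of monocyte and neutrophil markers DESeq2 called Ccr2, Ms4a4c and Mmp8, and edgeR called none. The part of these marker differences in the results below was not tested. In bulk RNA, fewer cells that express a gene and less of its RNA per cell cannot be told apart.

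None of the 32 members was called in either direction, where 0.789% of all tested genes were. The members were abundant enough to be tested in every case, and their fitted log2 fold changes ran from -0.58 for Aldoc to 0.44 for Eno2. Of these, 15 were positive and 17 negative, with a median of -0.03 beside -0.0021 over all tested genes. The median size of the change, taken without its sign, was 0.12 for the members and 0.15 for all tested genes. At an unadjusted p below 0.05 there were 3 members, P4ha1, Pfkp and Ndrg1, beside 17.5% of all tested genes. At an adjusted p below 0.1 there was 1 member, P4ha1, beside 4.01% of all tested genes. DESeq2 called 1 member (6.41% of all genes) and limma with sample weights 1 member (2.71% of all genes), and both times this was P4ha1. Of the 32 members, 0 had a q-value below 0.05 in what the authors' deposited table lists, beside 3.81% of the genes listed there with a q-value.

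The libraries of the genotypes did not overlap for 8 members, a share of members close to the 23.7% of all tested genes for which this held. Lgmn KO was the higher group for Aldoa, Pgam1, Egln3 and Ndrg1 (10.7% of all tested genes lay this way) and the lower one for Hk2, Pfkp, Aldoc and P4ha1 (13% of all tested genes). For 30 of the 32 the 95% interval of the fold change lay wholly within 2-fold in either direction, and for 24 within 1.5-fold, beside 77.9% and 58.9% of all tested genes. Pfkm and Aldoc, which are among the members with few counts, were the exceptions at 2-fold. A difference of 2-fold or more is therefore outside the interval for 30 members, and smaller differences are not shown to be absent.

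**Figure D1:**
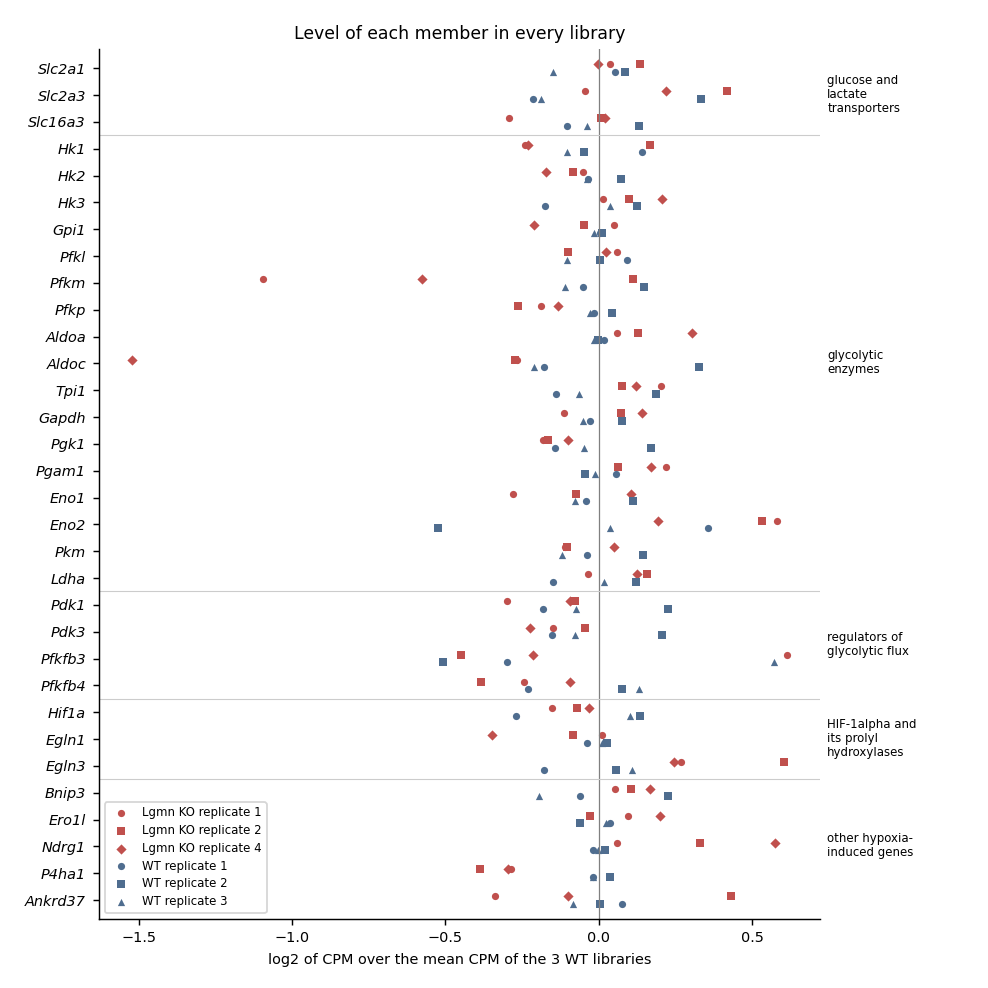
Level of each of the 32 members in every library, as log2 of CPM over the mean CPM of the 3 WT libraries (horizontal axis), with red for Lgmn KO, blue for WT and a symbol per replicate. Most points lie close to 0 and the colours mix. P4ha1 and Pfkp have all red points to the left of the blue ones, Ndrg1 and Egln3 have them to the right, and Pfkfb3 has one red and one blue point far to the right.

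**Figure D2:**
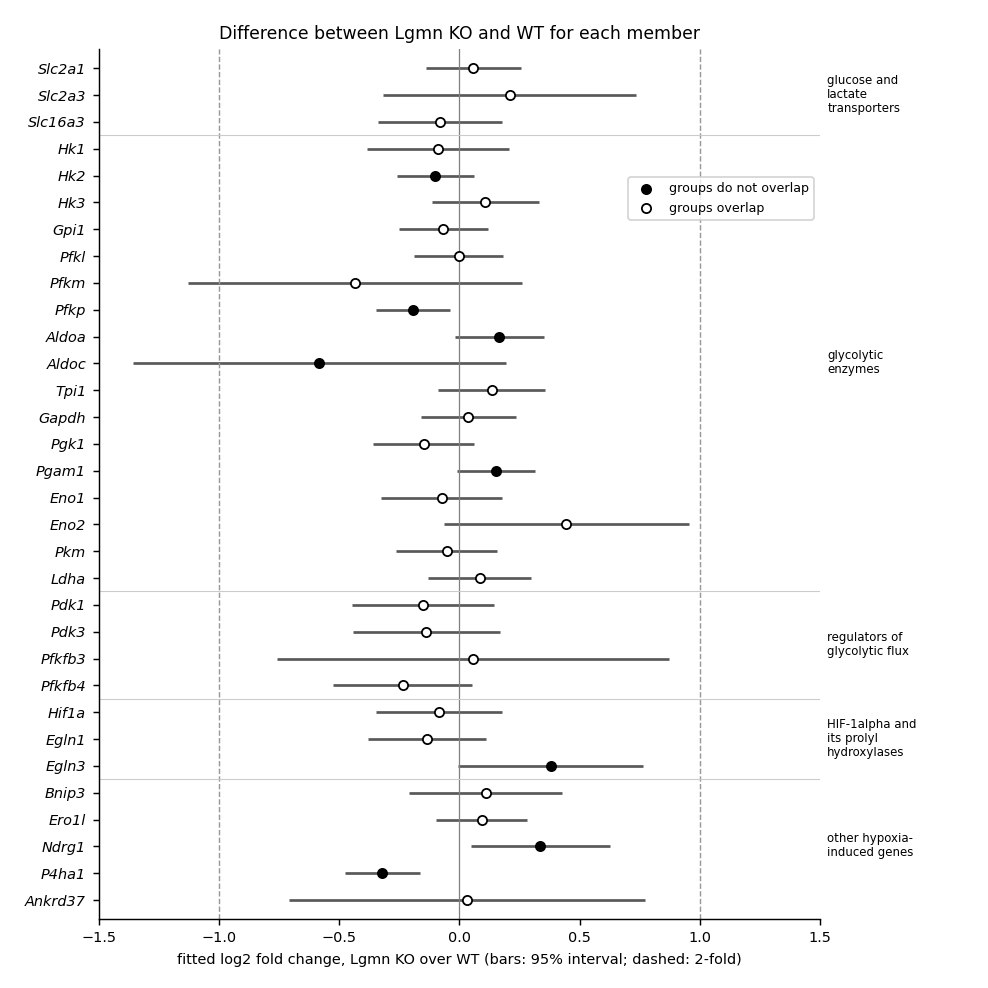
Log2 fold change fitted for each member, Lgmn KO over WT (horizontal axis), with bars for the 95% interval from edgeR and dashed lines at 2-fold. Filled circles are the 8 members whose libraries do not overlap between genotypes. The interval reaches past 2-fold for Pfkm and Aldoc.

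The sequence just upstream of the members' start sites was also read. It was not used directly to choose them, but many were listed as genes that HIF is known to raise. More of the letters that HIF recognises can therefore be expected from the choice itself. RefSeq promoter sequence (GRCm38.p6) was matched for 30 of the 32 members, and not for Slc2a3 and Ndrg1. The 250 bases before each start were searched on both strands for ACGTG and GCGTG, the letters that HIF recognises, and for the longer ACGTGC, which contains ACGTG. Because some genes have several start sites this gave 43 windows, and some windows of one gene overlap and hold the same letters. Of the 43 windows 35 (81.4%) held ACGTG or GCGTG, beside 38.6% of the 32851 windows of all genes. ACGTG was present in 22 member windows (51.2%), beside 16.6% of all windows, and ACGTGC in 13 (30.2%), beside 4.92%. Counted by gene, 27 of 30 members had at least 1 of the 2 core forms in some window, beside 41.5% of all 27025 genes. ACGTG was present for 19 of the 30 members, beside 18.5% of all genes, and ACGTGC for 13, beside 5.63%. The windows of all genes were not matched to those of the members for base composition, so these shares are a description only. A match is a description of these letters and not a bound site, and binding was not measured here. Windows are shown for the member with the smallest p (P4ha1), the prolyl hydroxylase Egln3, the metabolic enzymes Ldha and Pgk1, and Hif1a. Each is read 5′ to 3′ in the direction of the gene and ends at the base before the start, and capitals mark ACGTG or GCGTG or their reverse complements, CACGT for the former and CACGC for the latter. The letters CACGTG read the same on both strands and count as 2 overlapping matches. The windows are chr10:59323046-59323295 (plus strand), chr12:54203875-54204124 (minus strand), chr7:46845554-46845803 (plus strand), chrX:106186850-106187099 (plus strand) and chr12:73907617-73907866 (plus strand), and none of them overlaps an annotated exon.
P4ha1: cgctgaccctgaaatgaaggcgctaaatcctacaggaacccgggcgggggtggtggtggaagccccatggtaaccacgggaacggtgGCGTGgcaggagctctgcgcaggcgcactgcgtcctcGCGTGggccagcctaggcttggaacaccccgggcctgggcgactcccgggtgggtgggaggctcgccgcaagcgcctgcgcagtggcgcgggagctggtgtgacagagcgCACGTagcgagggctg
Egln3: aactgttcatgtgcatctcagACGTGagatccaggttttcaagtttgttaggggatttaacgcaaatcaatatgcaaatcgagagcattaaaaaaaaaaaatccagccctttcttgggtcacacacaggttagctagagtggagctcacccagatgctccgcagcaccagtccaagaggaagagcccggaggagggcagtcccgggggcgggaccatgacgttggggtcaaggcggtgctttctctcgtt
Ldha: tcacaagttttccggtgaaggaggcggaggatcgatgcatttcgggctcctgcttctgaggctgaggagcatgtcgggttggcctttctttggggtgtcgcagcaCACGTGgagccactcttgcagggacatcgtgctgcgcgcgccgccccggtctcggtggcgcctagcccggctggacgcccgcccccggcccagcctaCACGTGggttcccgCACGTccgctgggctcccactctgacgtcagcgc
Pgk1: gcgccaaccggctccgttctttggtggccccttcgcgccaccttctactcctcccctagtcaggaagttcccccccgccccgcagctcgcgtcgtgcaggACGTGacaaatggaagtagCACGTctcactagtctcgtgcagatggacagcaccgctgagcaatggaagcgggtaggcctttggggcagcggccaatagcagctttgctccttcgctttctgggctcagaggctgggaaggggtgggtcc
Hif1a: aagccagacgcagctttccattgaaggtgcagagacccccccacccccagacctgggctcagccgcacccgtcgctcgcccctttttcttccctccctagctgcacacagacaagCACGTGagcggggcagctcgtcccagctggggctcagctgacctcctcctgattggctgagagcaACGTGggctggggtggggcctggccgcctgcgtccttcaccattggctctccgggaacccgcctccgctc
The P4ha1 window held 3 matches, which began 163, 126 and 16 bases before the start, and the Egln3 window held 1, at 229 bases. Ldha had the most matches of the 5 windows, namely 5, at 145, 144, 48, 47 and 34 bases before the start. The pairs 145 and 144 and 48 and 47 are each CACGTG read on either strand. Another Ldha window, at chr7:46846832-46847081, is not shown and held 1 match, CACGC. In Pgk1 matches began 150 and 131 bases before the start. Hif1a, which encodes the oxygen-controlled subunit itself, held 3 such matches in the window upstream of one of its start sites, at 135, 134 and 70 bases. Of these 5 genes, P4ha1 had all Lgmn KO libraries below WT, Egln3 had them above WT, and Ldha, Pgk1 and Hif1a had overlapping groups, as given below.

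Glucose enters macrophages mainly through the facilitative transporter encoded by Slc2a1 (GLUT1), and Slc16a3 (MCT4) carries lactate out. Slc2a1 stood at 77.9, 83.4 and 75.8 CPM in Lgmn KO against 78.7, 80.6 and 68.5 in WT (log2 fold change 0.06, SE 0.08, adjusted p = 0.784). All 6 libraries lay within 1.22-fold of each other, and the groups overlapped. Slc2a3, which encodes a high-affinity glucose transporter, was scarce at 3.45, 4.75 and 4.15 CPM in Lgmn KO against 3.07, 4.49 and 3.13 in WT (log2 fold change 0.21, SE 0.23, adjusted p = 0.696). By deposited FPKM, which is scaled to gene length, Slc2a1 made up 97.7% of the pair Slc2a1 and Slc2a3 on average over the 6 libraries. Slc16a3 was at 39.3, 48.4 and 48.8 CPM in Lgmn KO against 44.8, 52.7 and 46.8 in WT, again with overlapping groups (log2 fold change -0.08, SE 0.11, adjusted p = 0.767). None of the 3 transporters passed the test.

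Hexokinases commit glucose to the pathway by phosphorylating it. Hk3, the hexokinase typical of myeloid cells, dominated on a per-length scale, with 85.4% of the summed deposited FPKM of Hk1, Hk2 and Hk3 on average over the 6 libraries and 82.7% to 87.8% in single libraries. Hk2, the inducible form, took 9.93% and Hk1, the form found in most tissues, 4.68%. Hk3 was at 859, 911 and 982 CPM in Lgmn KO against 754, 928 and 872 in WT (log2 fold change 0.11, SE 0.10, adjusted p = 0.618), and the groups overlapped. Hk2 was at 115, 112 and 106 CPM in Lgmn KO against 116, 125 and 116 in WT. Every Lgmn KO library was lower than every WT library for Hk2, yet the gap was small (log2 fold change -0.10, SE 0.07, adjusted p = 0.506, 95% interval -0.26 to 0.06) and the highest Lgmn KO library lay close to the lowest WT library. Hk1 was at 85, 113 and 85.5 CPM in Lgmn KO against 111, 97 and 93.4 in WT (log2 fold change -0.09, SE 0.13, adjusted p = 0.777), where Lgmn KO replicate 2 was the highest library of the 6.

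Glucose phosphate isomerase (Gpi1) passes its product to phosphofructokinase, the main control point of the pathway. Gpi1 was at 260.5, 243 and 218 CPM in Lgmn KO against 252, 253 and 249 in WT (log2 fold change -0.07, SE 0.08, adjusted p = 0.729), with overlapping groups. Of the 3 phosphofructokinase genes, the liver form Pfkl held 70.1% of the summed deposited FPKM, the platelet form Pfkp 26.4% and the muscle form Pfkm 3.58%, as means over the 6 libraries. Pfkl hardly differed between genotypes, at 136, 122 and 133 CPM in Lgmn KO against 139, 131 and 122 in WT (log2 fold change 0.00, SE 0.08, adjusted p = 0.989), and its 6 libraries spanned 1.15-fold, the narrowest range among the members. Pfkp was at 112, 106 and 117 CPM in Lgmn KO against 126, 132 and 125 in WT, so that all 3 Lgmn KO libraries lay below all 3 WT libraries. This was the second smallest p among the members, but it did not pass the adjusted threshold (log2 fold change -0.19, SE 0.07, adjusted p = 0.193, 95% interval -0.35 to -0.04). Pfkm was scarce at 2.17, 5.01 and 3.11 CPM in Lgmn KO against 4.48, 5.14 and 4.3 in WT (log2 fold change -0.44, SE 0.30, adjusted p = 0.509), and the low values of Lgmn KO replicates 1 and 4 stood beside a replicate 2 at the level of WT.

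Aldolase splits the sugar phosphate into the pair of triose phosphates that triose phosphate isomerase (Tpi1) interconverts. Aldoa supplied 99.2% of the summed deposited FPKM of Aldoa and Aldoc. It stood at 889, 932 and 1055 CPM in Lgmn KO against 864, 853 and 845 in WT, with every Lgmn KO library above every WT library, the highest being replicate 4 (log2 fold change 0.17, SE 0.08, adjusted p = 0.333, 95% interval -0.02 to 0.35). Aldoc, the brain form, lay the other way at 6.42, 6.39 and 2.69 CPM in Lgmn KO against 6.81, 9.68 and 6.67 in WT. Here Lgmn KO replicate 4 was far below the rest, and the fold change was the most negative among the members (log2 fold change -0.58, SE 0.33, adjusted p = 0.421, 95% interval -1.36 to 0.19). Tpi1 was at 437, 399.5 and 413 CPM in Lgmn KO against 344, 432 and 363 in WT (log2 fold change 0.13, SE 0.10, adjusted p = 0.531), and WT replicate 2 was as high as the Lgmn KO libraries.

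The later steps make ATP and end in pyruvate. Gapdh, often used as a reference gene, was at 138, 157 and 165 CPM in Lgmn KO against 147, 158 and 144 in WT (log2 fold change 0.04, SE 0.08, adjusted p = 0.87, 95% interval -0.16 to 0.23), and the groups overlapped. Pgk1, phosphoglycerate kinase, was at 218, 220.3 and 231 CPM in Lgmn KO against 224, 278 and 239 in WT (log2 fold change -0.15, SE 0.09, adjusted p = 0.452), where WT replicate 2 stood above the other 5. Pgam1, phosphoglycerate mutase, was at 848, 761 and 821 CPM in Lgmn KO against 759, 706 and 723 in WT, with all Lgmn KO libraries above all WT libraries by a small margin (log2 fold change 0.15, SE 0.07, adjusted p = 0.321, 95% interval -0.01 to 0.31). The enolase Eno1 was at 184, 213 and 240.3 CPM in Lgmn KO against 217, 242 and 212 in WT (log2 fold change -0.07, SE 0.11, adjusted p = 0.78), and it made up 94.1% of the summed deposited FPKM of Eno1 and Eno2. Eno2, the neuronal enolase, had the most positive fold change among the members, at 27.9, 26.9 and 21.3 CPM in Lgmn KO against 23.9, 13 and 19.1 in WT. WT replicate 1 lay above the lowest Lgmn KO library for Eno2, and WT replicate 2 was lowest of all (log2 fold change 0.44, SE 0.22, adjusted p = 0.35, 95% interval -0.07 to 0.95).

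Pyruvate kinase (Pkm) yields pyruvate, and Ldha encodes the lactate dehydrogenase subunit that favours lactate. Pkm was at 1669.8, 1676 and 1864 CPM in Lgmn KO against 1755, 1992 and 1657 in WT (log2 fold change -0.05, SE 0.09, adjusted p = 0.816). Ldha was at 632, 722 and 705 CPM in Lgmn KO against 583, 705 and 655 in WT (log2 fold change 0.08, SE 0.09, adjusted p = 0.698). For both genes the groups overlapped, and WT replicate 2 was the highest or near the highest library. Summed over the 17 glycolytic enzymes, CPM was 6835 ± 287 in Lgmn KO against 6643 ± 360 in WT (SD, n = 3 each). The single sums were 6620, 6725 and 7161 CPM in Lgmn KO against 6427, 7058 and 6444 in WT, so the ranges overlapped and the difference was smaller than the spread within either genotype.

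**Figure D3:**
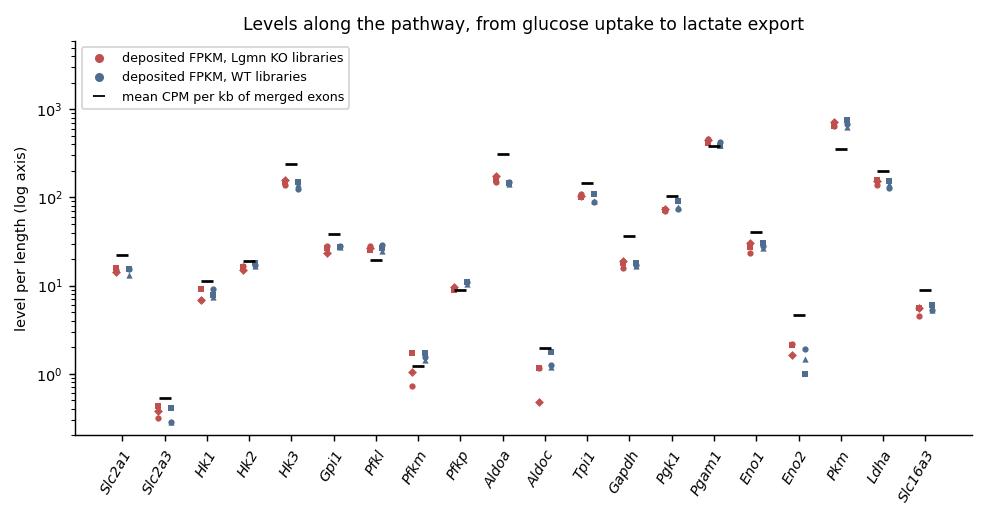
Deposited FPKM of the transporters and enzymes in the order of the pathway, in each Lgmn KO (red) and WT (blue) library, on a log axis with a symbol per replicate. Black lines give the mean CPM per kb of merged annotated exons. Pkm, Pgam1, Aldoa, Ldha, Hk3 and Tpi1 lie at the top and Slc2a3 at the bottom, and the line lies farthest from the points for Eno2, Gapdh, Aldoa and Pkm.

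Levels can be compared between genes only per length. By deposited FPKM, averaged over the 6 libraries, Pkm (680.1), Pgam1 (420.1), Aldoa (153), Ldha (145), Hk3 (145) and Tpi1 (101) were the 6 members over 100 FPKM. Gapdh had 17.5 FPKM and was 11th of the 32, and Slc2a3 was lowest at 0.351 FPKM. The gene length that a deposited FPKM implies was longer than the gene's whole genomic span for 5 members, among them Aldoa (5910 bases against a span of 5518) and Gapdh (8626 against 4753). CPM per kb of merged annotated exons was therefore computed beside it. On that scale Pgam1 came first at 388, Pkm second at 354, Aldoa next at 311, and Gapdh was 10th at 36.6. The leading 6 members were the same on both scales, and the order within them was not. Hk3 stayed the main hexokinase (88.6%) and Pfkl the main phosphofructokinase (65.8%) when merged exon length was used.

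The 4 flux regulators act on either side of the pathway. Pfkfb3 and Pfkfb4 make the sugar bisphosphate that switches phosphofructokinase on, and Pdk1 and Pdk3 shut pyruvate out of the mitochondria by phosphorylating pyruvate dehydrogenase. Pfkfb3 varied most between libraries among these 4, at 114, 54.6 and 64.4 CPM in Lgmn KO against 60.6, 52.5 and 111 in WT. Lgmn KO replicate 1 and WT replicate 3 were both high, and the other 4 libraries lay together, so the split did not follow genotype (log2 fold change 0.06, SE 0.35, adjusted p = 0.957, 95% interval -0.76 to 0.87). Pfkfb4 was at 28.9, 26.2 and 32 CPM in Lgmn KO against 29.1, 36 and 37.5 in WT (log2 fold change -0.24, SE 0.12, adjusted p = 0.38), with WT replicate 1 inside the Lgmn KO range. Pdk1 was at 23.3, 27.2 and 26.9 CPM in Lgmn KO against 25.3, 33.5 and 27.3 in WT (log2 fold change -0.15, SE 0.13, adjusted p = 0.591) and Pdk3 at 13.2, 14.2 and 12.5 CPM in Lgmn KO against 13.2, 16.9 and 13.9 in WT (log2 fold change -0.14, SE 0.13, adjusted p = 0.647), and WT replicate 2 was the highest library for both. By deposited FPKM Pdk3 made up 65.6% of the pair, and by merged exon length 60.9%.

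Hif1a encodes the alpha subunit that prolyl hydroxylases control, and its RNA level does not report the stability of the protein. It was at 108, 114 and 117 CPM in Lgmn KO against 99.5, 132 and 129 in WT (log2 fold change -0.09, SE 0.11, adjusted p = 0.757, 95% interval -0.35 to 0.18). Lgmn KO lay inside the WT range, where replicate 1 was low and replicates 2 and 3 were high. The prolyl hydroxylase Egln1 (PHD2), the main oxygen sensor in most cells, was at 34.2, 32 and 26.7 CPM in Lgmn KO against 33.1, 34.6 and 34.2 in WT (log2 fold change -0.13, SE 0.11, adjusted p = 0.571). Egln3 (PHD3), a hydroxylase that HIF itself induces, was at 6.76, 8.54 and 6.65 CPM in Lgmn KO against 4.96, 5.83 and 6.05 in WT. All 3 Lgmn KO libraries were above all 3 WT libraries for Egln3, though it did not pass the threshold (log2 fold change 0.38, SE 0.16, adjusted p = 0.291). Its fold change was 1.3 with a 95% interval of 0.997 to 1.7. As a share of the summed deposited FPKM of Egln1 and Egln3, Egln3 made up 23.8 ± 2.8% in Lgmn KO and 17.9 ± 1.2% in WT (SD, n = 3 each), with library ranges of 20.7% to 26% and 16.6% to 18.9%.

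P4ha1 was the member with the smallest p. It encodes the catalytic alpha subunit of the prolyl hydroxylase that matures collagen in the endoplasmic reticulum, and lies at chr10:59323296-59373304 in the coordinates of the deposited table, which are those of GRCm38. P4ha1 stood at 54.3, 50.7 and 53.9 CPM in Lgmn KO against 65.4, 67.8 and 65.4 in WT, or a mean of 53 ± 2.02 against 66.2 ± 1.42 CPM (SD, n = 3 each). The 3 Lgmn KO libraries were close together and all below the 3 WT libraries, which were closer still. The fitted log2 fold change was -0.32 (SE 0.07, 95% interval -0.48 to -0.17), a level in Lgmn KO of 0.80 times that of WT. In edgeR's quasi-likelihood test this gave an adjusted p of 0.074, short of the threshold, while DESeq2 gave 0.0134 and limma with sample weights 0.043. Leaving out each library in turn kept the direction, with edgeR adjusted p-values of 0.0569 to 0.21. In the authors' deposited table the log2 fold change of P4ha1 was -0.33 with a q-value of 0.233. Fibroblasts are known for making collagen, and their summed markers did not overlap between genotypes either (47 to 123 CPM in Lgmn KO, 139 to 189 in WT), and their part in this difference was not tested.

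The remaining members are genes that HIF is known to induce. Ndrg1, a stress-response gene, was at 94.5, 114 and 135 CPM in Lgmn KO against 89.5, 91.9 and 90.6 in WT, or a mean of 115 ± 20.3 against 90.7 ± 1.24 CPM (SD, n = 3 each). WT libraries were nearly equal, and Lgmn KO libraries were all higher but spread from just above WT in replicate 1 to well above it in replicate 4 (log2 fold change 0.34, SE 0.12, adjusted p = 0.223, 95% interval 0.05 to 0.63). Without Lgmn KO replicate 4 the log2 fold change of Ndrg1 fell from 0.34 to 0.20. Ero1l, which oxidises proteins in the endoplasmic reticulum, was at 55.2, 50.7 and 59.4 CPM in Lgmn KO against 52.9, 49.5 and 52.5 in WT (log2 fold change 0.09, SE 0.08, adjusted p = 0.617). Bnip3, a mitophagy receptor, was at 13.1, 13.5 and 14.1 CPM in Lgmn KO against 12.1, 14.7 and 11 in WT (log2 fold change 0.11, SE 0.14, adjusted p = 0.743). Ankrd37 was close to the limit of what could be tested, at 0.839, 1.43 and 0.99 CPM in Lgmn KO against 1.12, 1.06 and 1 in WT (log2 fold change 0.03, SE 0.32, adjusted p = 0.974). The groups overlapped for Ero1l, Bnip3 and Ankrd37. Counting P4ha1, 4 of these 5 genes had a positive value and P4ha1 a negative one, and none was called in edgeR.

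**Figure D4:**
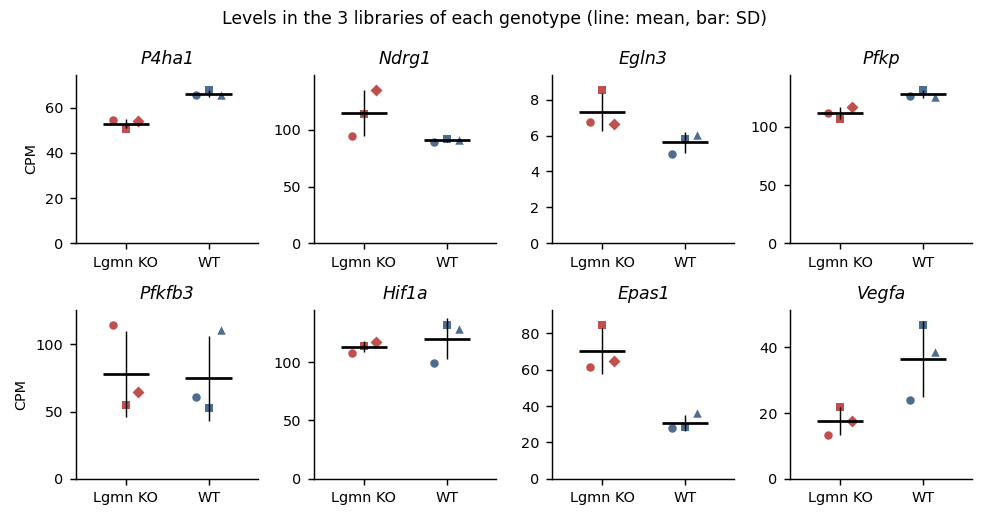
CPM of 6 members (P4ha1, Ndrg1, Egln3, Pfkp, Pfkfb3, Hif1a) and of the further genes Epas1 and Vegfa in each library, with a symbol per replicate, a line at the mean of 3 libraries and a bar of 1 SD either way. Epas1 has all red points well above the blue ones, and its group means differ by the largest ratio among these 8 genes. Pfkfb3 has one high library in each genotype.

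The members also varied between libraries of one genotype. The ratio of the highest to the lowest of the 6 libraries ran from 1.15 for Pfkl to 3.60 for Aldoc, with a median of 1.32. WT replicate 2 was the highest library for 14 of the 32 members, where WT replicates 1 and 3 were highest for 1 each and the Lgmn KO libraries for 5, 6 and 5. Relative to the mean of the WT libraries, the median member stood at 0.08 on the log2 scale in WT replicate 2 and between -0.04 and 0.01 in the other 5 libraries. WT replicate 2 also had the highest summed markers of dendritic cells (82.6 CPM), monocytes (836 CPM) and T and NK cells (17.2 CPM). Most of the monocyte sum was Chil3 (530 CPM), which was nearly as high in Lgmn KO replicate 1 (526 CPM). Ace, another monocyte marker, was lowest in WT replicate 2 (11.1 CPM). The summed neutrophil markers of WT replicate 2 (455 CPM) were the highest too, with Mmp8 at 255 CPM. Cxcr2 (2.64 CPM) was lower there than in the other 5 libraries. S100a9 (3.47 CPM) was also lowest there, but close to Lgmn KO replicate 1 (3.50 CPM). Ly6g was at 0 there, as in every library but Lgmn KO replicate 4. How far these cells contribute to the members' levels was not tested.

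Several members have near-identical copies in the genome, and how the authors' counting treated reads that match several genes was not given in the sources used here. Each member's transcript with the longest coding sequence (GENCODE M21) was cut into all its 50-base stretches, and these were looked for in the transcripts of all other genes that do not overlap it. No stretch was shared for 20 members and at least 1 was shared for 12. Most of the stretches were shared for 3 of them, Gapdh (90.4%), Eno1 (72.2%) and Pgk1 (68.0%). Gapdh is the clearest case, and 1 of its stretches is shown because 84 other annotated genes carry it letter for letter. It lies in coding exon 4 of 7 at chr6:125162898-125162947 on the minus strand of GRCm38.
Gapdh: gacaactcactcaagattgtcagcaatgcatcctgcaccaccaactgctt
Of the counts given to Gapdh and 12 copies listed in the deposited table, the copies held 15.2% to 21.9% across the 6 libraries. Their share was 19.3%, 16.9% and 15.2% in Lgmn KO against 19.7%, 20.3% and 21.9% in WT, so the groups did not overlap. The part of this in the fold change of Gapdh was not tested. Eno1b, a near-identical copy of Eno1, held 28.1% to 30.7% of the counts of Eno1 and Eno1b, and copies of Pgam1 held 10.8% to 12.4%. For Pgk1, whose whole coding sequence is repeated in Pgk1-rs7, the copy held 0.0927% to 0.325%. Without knowing how such reads were divided or dropped, the levels and fold changes of Gapdh, Eno1, Pgk1 and Pgam1 are uncertain. The same limit holds for Bnip3 and Pkm, which shared 48.9% and 30.5% of their stretches. It holds over smaller shares for Gpi1 (19.6%), Ldha (16.6%), Aldoa (13.5%) and Tpi1 (7.51%). The ranks per length of these genes given above carry the same limit. Eno1b itself gave a log2 fold change of -0.11 (adjusted p = 0.627), beside -0.07 for Eno1. Exons of 14 members also overlap exons of another gene, over 26.4% of the merged exon length for Ankrd37, 22.3% for Bnip3 and 15.3% for Pkm. In Ankrd37 and Bnip3 the other genes lie on the opposite strand, and reads there cannot be assigned without strand. In Pkm the other gene lies on the same strand, as do some of those in Pfkm and Hif1a, and strand would not separate reads there.

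**Figure D5:**
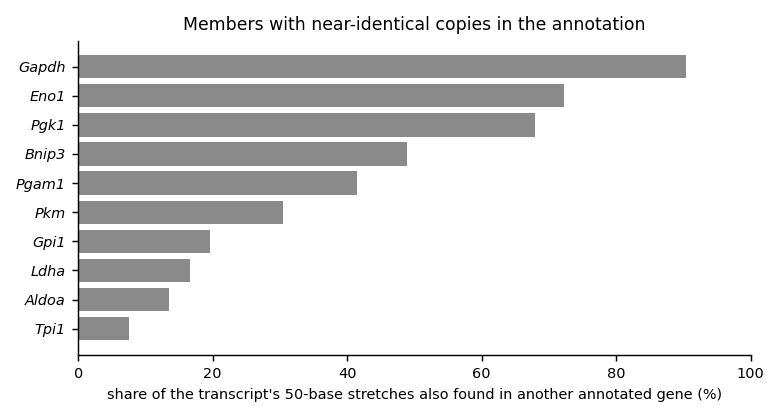
Share of the 50-base stretches of a member's transcript that occur letter for letter in another annotated gene (horizontal axis, percent), for the 10 members with at least 1 percent. Gapdh, Eno1 and Pgk1 exceed 50 percent, and Bnip3 lies just below.

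Genes around the 32 members were read from 7 further lists, which hold 164 genes, of which 131 were tested. Of these, 2 were called higher in Lgmn KO (0.311% of all tested genes were called higher) and 0 lower (0.478%), while 28 had an unadjusted p below 0.05 (17.5% of all tested genes did). DESeq2 called 11 (6.41% of all genes) and limma with sample weights 7 (2.71%). The median log2 fold change of the 131 was 0.03. The called genes were Epas1 and Tfrc.

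Epas1 encodes HIF-2alpha, the second oxygen-controlled alpha subunit, and was among 18 tested sensors and partners of HIF, of which it alone was called (list median 0.03). Its levels were 61.3, 84.4 and 65 CPM in Lgmn KO against 27.7, 28.2 and 36 in WT, or a mean of 70.3 ± 12.4 against 30.6 ± 4.64 CPM (SD, n = 3 each). The lowest Lgmn KO library lay well above the highest WT library (log2 fold change 1.20, SE 0.15, adjusted p = 0.0277). The adjusted p rose above 0.05 when any single Lgmn KO library, WT replicate 2 or WT replicate 3 was left out, at 0.054 to 0.11, with log2 fold changes of 1.05 to 1.33, while the call was kept without WT replicate 1. DESeq2 and limma with sample weights called it too. Endothelial cells are known to express Epas1, and their summed markers were at 24.8 to 42.9 CPM in Lgmn KO against 37.9 to 43.6 in WT, most of it Kdr. Among the other endothelial markers, Flt1 was at 1.43, 0.92 and 1.23 CPM in Lgmn KO against 11.1, 7.41 and 6.38 in WT (edgeR adjusted p = 0.015), and Pecam1 and Esam were also below WT in all 3 Lgmn KO libraries. The part of these cells in the level of Epas1 was not tested. The 2 alpha subunits were thus at 70.3 ± 12.4 against 30.6 ± 4.64 CPM for Epas1 and 113 ± 4.79 against 119.9 ± 17.7 CPM for Hif1a (SD, n = 3 each), and whether their fold changes differ from each other was not tested. In the same list Hsp90ab1, a chaperone that binds HIF alpha subunits, was at 765, 739 and 694 CPM in Lgmn KO against 819, 883 and 783 in WT and did not pass (log2 fold change -0.18, SE 0.07, adjusted p = 0.277).

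Tfrc, the transferrin receptor that imports iron and a known target of HIF, was the only call among 41 tested further hypoxia-induced genes (list median 0.07, with 13 at an unadjusted p below 0.05, where 17.5% of all tested genes were). It was at 229, 204 and 254 CPM in Lgmn KO against 115, 100.3 and 124 in WT, with all Lgmn KO libraries far above all WT libraries (log2 fold change 1.02, SE 0.11, adjusted p = 0.0161). Its adjusted p was 0.054 to 0.0783 without any one Lgmn KO library or WT replicate 3, with log2 fold changes of 0.93 to 1.10, and the call was kept without WT replicate 1 or 2. Nos2, the inducible nitric oxide synthase of inflammatory macrophages, had 0 counts in all 3 Lgmn KO libraries and 14, 39 and 28 counts in WT. Taking 3 counts over the Lgmn KO group as the floor, Nos2 was at least 24.9-fold lower there, and edgeR's adjusted p was 0.0544, while DESeq2 and limma with sample weights called it. Hmox1, heme oxygenase, was at 539, 459 and 537 CPM in Lgmn KO against 470.3, 424 and 421 in WT (log2 fold change 0.22, SE 0.09, adjusted p = 0.248) and Anxa2 at 968, 925 and 944 CPM in Lgmn KO against 868, 793 and 856 in WT (log2 fold change 0.17, SE 0.07, adjusted p = 0.238), and neither passed.

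Within that list 4 more genes are named because of their values, which were seen first, and none passed the threshold in edgeR. Vegfa, the growth factor for blood vessels, was at 13.3, 21.9 and 17.5 CPM in Lgmn KO against 23.9, 46.8 and 38.6 in WT (log2 fold change -1.05, SE 0.27, adjusted p = 0.107), with all Lgmn KO libraries below all WT libraries. Its WT libraries stood in the same order as the summed dendritic cell markers of those libraries (16.1, 82.6 and 45.1 CPM), of which Ciita made up most. Markers listed for other cell types, among them Csf1r, Cd14, Ccr2 and Mmp8, had that order in WT too. In Lgmn KO the summed dendritic cell markers (7.01, 8.28 and 8.91 CPM) did not follow the order of Vegfa. These relations were not tested. Fosl2, a transcription factor of the AP-1 family, was at 39.7, 46.1 and 42.8 CPM in Lgmn KO against 56.9, 62.5 and 58.2 in WT (log2 fold change -0.47, SE 0.08, adjusted p = 0.0555), with the groups apart in the same way. Bnip3l, a mitophagy receptor related to Bnip3, was at 413, 401 and 446 CPM in Lgmn KO against 352, 311 and 300.4 in WT (log2 fold change 0.39, SE 0.08, adjusted p = 0.0817). Hilpda, which slows the breakdown of lipid droplets, was at 53, 57.7 and 51.4 CPM in Lgmn KO against 42.3, 42.1 and 40.8 in WT (log2 fold change 0.37, SE 0.07, adjusted p = 0.0713). For both, all Lgmn KO libraries lay above all WT libraries. DESeq2 called all 4, and limma with sample weights called Fosl2, Bnip3l and Hilpda. The 4 genes did not share a direction.

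Genes of the routes that branch from glycolysis gave 0 calls in each list in edgeR, while DESeq2 called Ugp2, Pdp1 and Rheb and limma with sample weights called Ugp2. The counts at an unadjusted p below 0.05 given for each list stand beside a share of 17.5% over all tested genes. The 12 tested carriers and isoenzymes outside the members had a median log2 fold change of -0.05 and 2 genes at an unadjusted p below 0.05, among them the lactate transporter Slc16a1 (MCT1) at 21.8, 22.9 and 21 CPM in Lgmn KO against 28, 28.6 and 22.9 in WT (log2 fold change -0.28, SE 0.11, adjusted p = 0.261). Ldhb, the lactate dehydrogenase subunit that favours pyruvate, was at 30.2, 26 and 24.4 CPM in Lgmn KO against 28.3, 28.5 and 23.3 in WT (log2 fold change 0.01, SE 0.12, adjusted p = 0.977). For the pentose phosphate pathway, which makes NADPH and ribose, the median over 11 tested genes was 0.01 with 2 at an unadjusted p below 0.05. H6pd, its enzyme in the endoplasmic reticulum, was at 87.8, 85 and 81.4 CPM in Lgmn KO against 106, 100.1 and 92.8 in WT with all Lgmn KO libraries lower (log2 fold change -0.24, SE 0.08, adjusted p = 0.171), and Pgd was at 723, 684 and 692 CPM in Lgmn KO against 672, 655 and 614 in WT with all Lgmn KO libraries higher (log2 fold change 0.11, SE 0.07, adjusted p = 0.43).

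Glycogen and gluconeogenesis genes had a median of 0.14 over 15 tested, with 4 at an unadjusted p below 0.05. Ugp2, which makes the UDP-glucose from which glycogen is built, was at 299.5, 266 and 287 CPM in Lgmn KO against 237, 187 and 206 in WT. All its Lgmn KO libraries were above all WT libraries, and edgeR did not call it (log2 fold change 0.44, SE 0.10, adjusted p = 0.0866), while DESeq2 and limma with sample weights did (adjusted p = 0.00491 and 0.0395). The glycogen branching enzyme Gbe1 was at 23.2, 21.4 and 25.6 CPM in Lgmn KO against 19.1, 19.2 and 15.6 in WT (log2 fold change 0.38, SE 0.12, adjusted p = 0.172). Genes for pyruvate entry into mitochondria had a median of 0.11 over 11 tested, with 2 at an unadjusted p below 0.05. Pdp1, the phosphatase that undoes the action of the Pdk kinases on pyruvate dehydrogenase, was at 101, 93.8 and 112 CPM in Lgmn KO against 73.3, 80.2 and 77.7 in WT, again with groups that did not overlap (log2 fold change 0.41, SE 0.08, adjusted p = 0.0739), and Pdhb, a subunit of pyruvate dehydrogenase, was at 67, 62.3 and 64.5 CPM in Lgmn KO against 56, 55.5 and 56.1 in WT (log2 fold change 0.21, SE 0.06, adjusted p = 0.163). DESeq2 called Pdp1 (adjusted p = 0.00383) and limma with sample weights did not (0.0509). Among 25 tested upstream regulators of glycolysis the median was -0.02, and 3 had an unadjusted p below 0.05. Of these 3, Rheb, the small GTPase that activates mTOR, was at 132, 114 and 119.5 CPM in Lgmn KO against 98.3, 93.2 and 102 in WT (log2 fold change 0.32, SE 0.08, adjusted p = 0.105). Txnip, which limits glucose uptake, was at 133, 156 and 151 CPM in Lgmn KO against 137, 238 and 153 in WT, where WT replicate 2 stood above the other 5 libraries (log2 fold change -0.27, SE 0.20, adjusted p = 0.546).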

How the data were processed

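Messenger RNA was measured in 3 Lgmn KO and 3 WT libraries, grouped by title and genotype label. The deposited counts are whole numbers per gene (per the file headers) and were taken as raw. The deposited FPKM values, scaled to a gene's length and the library's size, were described and not tested. The authors' deposited log2 fold changes, p-values and q-values were described only. HISAT2, TopHat and TopHat2 2.0.9 and the human build hg38 stand in the submitters' processing notes. By contrast, 98.6% of the gene IDs are in GENCODE M21 (mouse GRCm38), and 80.8% of the IDs found there have the same positions. Which program counted the reads, whether it used strand and how the authors tested genes were not given in the sources used here.

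Counts of all 6 libraries were filtered (filterByExpr), scaled (TMM) and tested with edgeR 4.0.16 (glmQLFit, glmQLFTest) in R 4.3.3, with Benjamini-Hochberg adjustment over 12546 genes. The common biological coefficient of variation was 16.1%. Squared differences between libraries of one genotype were 14.0 to 42.7 times those that sampling noise alone would give (chi-square over its degrees of freedom). No library was therefore taken for a repeat of another, which does not show separate animals. DESeq2 1.42.0, limma 3.58.1, other scalings and filters, and leaving out libraries were alternatives. The procedure was tested on simulated data. Members and lists were chosen with earlier results of these data known. All 32 members are named. Each further list gives its called genes, the 2 of smallest p and the 2 of highest level, of which some are printed, and 4 genes outside this are said to be so. No p was adjusted over the list and no gene set was tested.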

Additional observations from a re-analysis of the deposited data

How the results depend on the processing

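The number of genes called over the whole table depended on the method: 99 as reported, 804 with DESeq2, 340 with limma and sample weights, 165 with total counts in place of TMM, 318 with no filter on low counts, 503 at an adjusted p below 0.1, and 6 to 639 when one library was left out. Of the members 0 were called as reported and under the other scalings, the 2 filters, each left-out library and the replicate block, and 1 (P4ha1) with DESeq2, with limma and at an adjusted p below 0.1. The members' median kept within -0.05 to 0.01 when one library was left out.

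Libraries share replicate numbers 1 and 2 only, and the labels do not say what these mark. With those 4 libraries, a replicate block gave 33 calls over all genes, and the same 4 without a block gave 4 (chosen after seeing the data). Deviations of same-numbered libraries correlated at 0.126. Epas1 and Tfrc had adjusted p = 0.0526 and 0.0507 with the block and 0.144 and 0.144 without it.

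Some signs turned. Pfkl was at 0.005323 with DESeq2, 0.02975 with limma, 0.005141 with RLE factors, 0.004426 with upper-quartile factors and 0.009148 with no filter. Pfkfb3 was at -0.28 with limma, and Ldhb at -0.002756 with total counts. With the replicate block and with the same 4 libraries without it, Gapdh was at -0.04445 and -0.04245, Bnip3 at -0.002929 and -0.009292 and Ldhb at -0.01732 and -0.01327. With one library left out, the log2 fold changes that changed sign ranged as follows: Slc16a3 -0.14 to 0.0241, Eno1 -0.18 to 0.02749, Pfkfb3 -0.32 to 0.46, Ldhb -0.07842 to 0.07238, Pfkl -0.05224 to 0.04581, Ankrd37 -0.21 to 0.20, Gapdh -0.02096 to 0.12, Pkm -0.11 to 0.025, Txnip -0.42 to 0.01276, Slc2a1 -0.01217 to 0.10. The cause of these differences was not tested. By counts in place of FPKM, Pdk1 made up 66% of Pdk1 and Pdk3, and Pfkl 51.4% of the phosphofructokinases.

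The SE of the members' log2 fold changes ran from 0.07 to 0.35, the highest for Pfkfb3, whose mean was 76.2 CPM. Among scarce members it was 0.33 for Aldoc, 0.32 for Ankrd37 and 0.30 for Pfkm, but 0.16 for Egln3. Counting error is only part of the spread, and 3 libraries a genotype leave small differences undetectable.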
